A study of Schizosaccharomyces pombe with 4 samples.

Results

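The comparison set the 2 libraries numbered 2 against the 2 libraries numbered 1 in an RNA-seq series of fission yeast (Schizosaccharomyces pombe). All 4 libraries of the series took part, chosen by the number in their titles, with 1 library of each number from wild type (WT) cells and 1 from Y41F cells. Both genotypes came from log-phase cultures at 30 °C in the rich medium YEA. WT libraries 1 and 2 carry the strain name KOR3006, whereas Y41F library 1 is from strain SPBB297 and Y41F library 2 from strain SPBB298, so that within Y41F the library number and the strain cannot be told apart. Which protein carries the Y41F change is not in the labels, and from what is known of the study it is taken as histone H3. The labels also do not say whether a number marks a culture, a day or a batch. The p-values therefore reflect only these 4 libraries, and their spread may be technical. The p-values and SEs set the shift that both genotypes share against its disagreement between them, with information shared across genes. In Y41F that disagreement also holds the strain difference, and it is not a spread between replicates of the same condition.

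Fission yeast growing on glucose keeps genes for the use of other sugars and for gluconeogenesis repressed, through the cAMP-dependent kinase Pka1 and repressors such as Scr1, and releases them when glucose falls. The mitogen-activated kinase Sty1 and the transcription factor Atf1 switch on a common set of genes, the core environmental stress response, under many kinds of stress and when nutrients run low. Fast growth calls for ribosomal proteins and for the factors that assemble ribosomes in the nucleolus, and the expression of both usually follows the growth rate.

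Library totals lay between 20845572 and 23616464 expected counts, and each library listed between 5120 and 5129 genes. The first principal component held 45.3% of the variance and separated the libraries by number, and the second held 38.5% and separated the genotypes. Of the mating-type markers, the pheromone receptor gene mam2 lay between 46.4 and 53.8 CPM (counts scaled to a common library size by TMM) and map3 between 79.7 and 82.0 in the 4 libraries. The pheromone precursor genes mfm1, mfm2 and mfm3 stayed below 2 CPM in every library.

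Between libraries numbered 2 and 1, 99 of 5076 tested genes passed a Benjamini-Hochberg adjusted p under 0.05 (1.95%) in the quasi-likelihood test of edgeR with genotype as block. Of these, 95 were higher in the libraries numbered 2 (1.87%) and 4 were lower (0.0788%). At an unadjusted p under 0.05 the counts were 379 higher and 189 lower. Each of the 99 moved in the same direction in WT and in Y41F, and for 93 of them the libraries of the 2 numbers did not overlap. The fit favours genes whose shifts agree between the genotypes, so both counts follow at least in part from how the 99 were chosen. Among all tested genes, 19.5% had both libraries numbered 2 above both numbered 1, and 19.2% had both below. The log2 fold change (number 2 over number 1) of the 95 ranged from 0.44 to 5.47 with a median of 0.89, against a median of 0.00 over all tested genes. Across all 5076 genes the shift within WT and the shift within Y41F had a Pearson correlation of 0.446 and a Spearman correlation of 0.229, given as a description, since genes are not independent replicates and the 4 libraries were scaled together. Of all genes, 1440 (28.4%) lay above 0 in both genotypes, 1466 (28.9%) below 0 in both and 2170 in opposite directions.

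**Figure D1:**
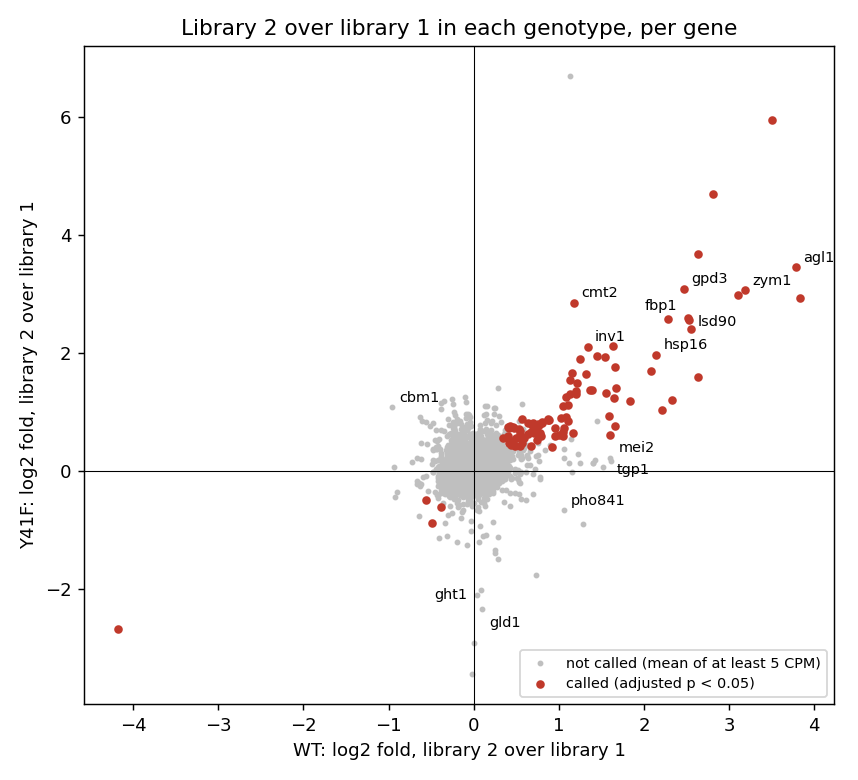
Each point is 1 gene, with the log2 fold change of library 2 over library 1 within WT on the x axis and within Y41F on the y axis (red, called in the fit; grey, not called, shown where the mean is at least 5 CPM). The called genes lie mostly in the upper right, where both genotypes had higher values in library 2, and mei2 and tgp1 lie along the WT axis while gld1 and ght1 lie along the Y41F axis.

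Genes for sugars other than glucose were among those that changed most. The maltose alpha-glucosidase gene agl1, which splits maltose into glucose, had 45.8 CPM in WT library 1, 632 in WT library 2, 31.5 in Y41F library 1 and 345 in Y41F library 2. Both libraries numbered 2 were far above both numbered 1, and the log2 fold change was 3.62 ± 0.12 (SE) at an edgeR adjusted p of 7.4e-06. The fructose-1,6-bisphosphatase gene fbp1, the classic glucose-repressed gene of gluconeogenesis, had 14.8 and 85.0 CPM in WT and 20.4 and 124 in Y41F. Its log2 fold change was 2.56 ± 0.10 (adjusted p = 7.8e-06). The invertase gene inv1, which splits sucrose outside the cell, had 151 and 383 CPM in WT and 118 and 510 in Y41F, with 1.72 ± 0.17 (adjusted p = 0.00141). For all 3 genes the libraries of the 2 numbers did not overlap.

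The list of glucose-repressed and alternative carbon genes had 25 tested members, of which 6 rose and 0 fell, or 24% against 1.95% of all genes. Besides agl1, fbp1 and inv1 these were the alcohol dehydrogenase gene adh8 (1.22 ± 0.20), the galactose-use gene gal10 (0.78 ± 0.13) and the dihydroxyacetone kinase gene dak1 (0.56 ± 0.09). The list's median was 0.13, with 14 members above 0 in both genotypes and 4 below 0 in both, against 28.4% and 28.9% of all genes. Its most abundant members were not called. The malic enzyme gene mae2 had 0.24 ± 0.08 (adjusted p = 0.293) and the malate transporter gene mae1 had -0.01 ± 0.12. Glucan 1,4-alpha-glucosidase gene SPAC4H3.03c, not in the list and picked with its values in view, had 33.7 and 75.1 CPM in WT and 30.7 and 97.0 in Y41F (1.41 ± 0.13, adjusted p = 9.56e-04).

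Of the glucose sensing and cAMP list, 1 of 24 tested genes was called, against 1.95% of all genes, so that the list itself did not stand out, and that gene fell. This was scr1, which encodes the repressor of fbp1 and inv1, at 76.0 and 58.4 CPM in WT and 83.7 and 55.0 in Y41F. The log2 fold change was -0.49 ± 0.10 (edgeR adjusted p = 0.0489), close to the threshold, and both libraries numbered 2 lay below both numbered 1. The activator gene rst2 and the kinase gene pka1, both picked with their values in view, had 0.01 ± 0.09 and 0.13 ± 0.11. The gene for the regulatory subunit of that kinase, cgs1, had 3.84 and 3.13 CPM in WT and 8.19 and 3.02 in Y41F and was not called (adjusted p = 0.300).

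**Figure D2:**
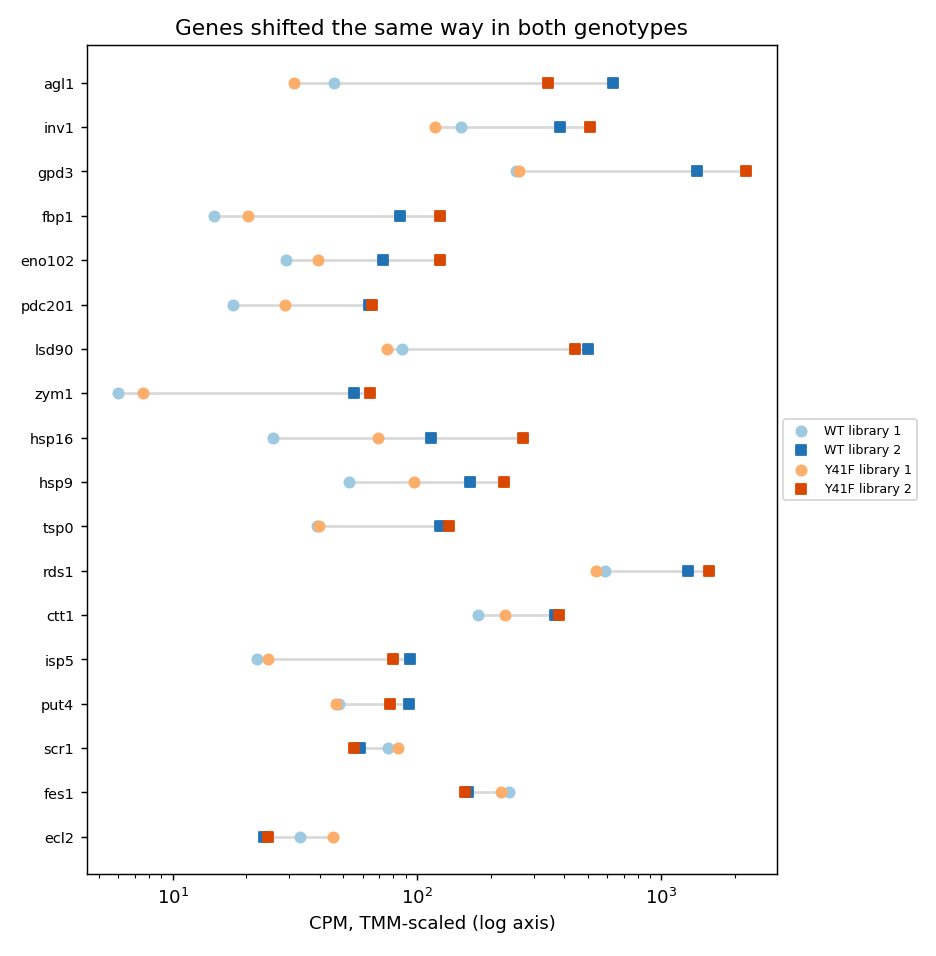
CPM (log axis) in each of the 4 libraries of 18 called genes named in the text, with circles for libraries numbered 1 and squares for libraries numbered 2. For agl1 the libraries numbered 2 sit at 345 and 632 and those numbered 1 at 31.5 and 45.8.

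In glycolysis and ethanol fermentation, 3 of 19 tested genes rose and 0 fell (15.8% called, against 1.95% of all genes), and the 3 are second copies of enzymes whose main genes did not pass the test. The glyceraldehyde-3-phosphate dehydrogenase gene gpd3 had 254 and 1403 CPM in WT and 260.4 and 2210.2 in Y41F (2.78 ± 0.15, adjusted p = 4.21e-05). The gene tdh1, for the same enzyme, had 28136 and 25410.4 CPM in WT and 25317 and 28446 in Y41F (0.01 ± 0.09). The expected counts of gpd3 are not whole numbers, as where reads are shared with a similar gene. The enolase gene eno102 had 29.1 and 72.5 CPM in WT and 39.5 and 124 in Y41F (1.49 ± 0.11, adjusted p = 2.91e-04) and is also in the subtelomeric list, and eno101, picked with its values in view, had 0.08 ± 0.08. The pyruvate decarboxylase gene pdc201 had 17.8 and 63.7 CPM in WT and 28.9 and 65.6 in Y41F (adjusted p = 0.00187), while pdc101, also picked in this way, had -0.12 ± 0.08. The aldolase gene fba1 had -0.08 ± 0.08. None of the 53 tested genes of the TCA cycle and respiratory chain was called by edgeR, and their median was -0.01 (0.03 scaled by library size alone). The malate dehydrogenase gene mdh1 had the smallest p among them, at 0.35 ± 0.09 (adjusted p = 0.153).

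Core environmental stress response genes formed the list with the most calls. This list, like the others, was written with earlier results of these data known. Of 47 tested, 18 rose and 0 fell, 38.3% against 1.95% of all genes, with a median log2 fold change of 0.42 in the fit, 0.31 within WT and 0.30 within Y41F. Of the 47, 33 lay above 0 in both genotypes and 6 below 0 in both, against 28.4% and 28.9% of all genes. A further 8 lay above 0 in WT and below 0 in Y41F. Both libraries numbered 2 lay above both numbered 1 for 26 of the 47, against 19.5% of all genes. They lay below both for 6, against 19.2% of all genes. The summed level of the list was 6365 CPM in WT library 1 against 9009 in WT library 2, and 7515 in Y41F library 1 against 10405 in Y41F library 2. Without the genotype block 5 of the 47 were called by edgeR, and leaving out WT library 1 as well left 0.

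The metallothionein gene zym1, which binds zinc and other metals, had 6.0 and 55.2 CPM in WT and 7.6 and 64.2 in Y41F. It differed by 3.14 ± 0.13 (edgeR adjusted p = 8.31e-06). For lsd90, a stress-induced gene, the values were 86.6 and 500.1 CPM in WT and 75.5 and 444 in Y41F (2.54 ± 0.10). The small heat shock protein gene hsp16 had 25.8 and 114 CPM in WT and 69.4 and 273 in Y41F (2.06 ± 0.10, adjusted p = 2.07e-05). In this gene Y41F was also above WT within each number, and its log2 fold change for Y41F over WT in the same fit was 1.33 (adjusted p = 5.8e-04). The plasma membrane heat shock protein gene hsp9 had 52.6 and 165 CPM in WT and 96.9 and 227 in Y41F (1.44 ± 0.12). Smaller rises were found for rds1, the most abundant member per length among the called ones, at 585 and 1284 CPM in WT and 540.3 and 1571 in Y41F (1.34 ± 0.11).

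Genes for 2 enzymes that remove peroxides rose, by less than 2-fold in the fit. The catalase gene ctt1 had 177 and 369 CPM in WT and 229.97 and 381 in Y41F (0.89 ± 0.11, edgeR adjusted p = 0.00424). The glutathione peroxidase gene gpx1 had 176 and 306 CPM in WT and 193 and 340.4 in Y41F (0.81 ± 0.09, adjusted p = 0.00308). These were the 2 called members of the 30 tested genes for oxidative stress and redox (6.67%, against 1.95% of all genes), and both are also in the stress list. The median of the redox list was -0.02 (0.02 scaled by library size alone), and the abundant peroxiredoxin gene tpx1 had 0.18 ± 0.09 (adjusted p = 0.510). The other called stress genes include tsp0 (1.72 ± 0.09), mug147 (1.74 ± 0.11), SPAC637.03 (1.38 ± 0.09), ish1, for a nuclear envelope protein (0.52 ± 0.09), and the proteinase B inhibitor gene pbi2 (0.70 ± 0.11).

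Several well-known stress genes were not among the calls. The glycerol-3-phosphate dehydrogenase gene gpd1, which makes glycerol under osmotic stress, had 0.19 ± 0.08, and the trehalose-6-phosphate synthase gene tps1 had 0.16 ± 0.09, while another trehalose-phosphate synthase gene, SPAC22F8.05, was called higher (0.80 ± 0.11, edgeR adjusted p = 0.00855). The gene for the Sty1 phosphatase, pyp2, had 31.5 and 32.5 CPM in WT and 75.9 and 49.9 in Y41F (-0.29 ± 0.15). These genes were picked with their values in view. Of 25 tested regulators of the Sty1 pathway, 1 rose and 0 fell (4%, near the 1.95% of all genes). It was mkh1, for a kinase of the cell wall integrity pathway, at 93.5 and 126 CPM in WT and 94.2 and 129 in Y41F (0.44 ± 0.09, edgeR adjusted p = 0.0454). The kinase gene sty1 had -0.01 ± 0.09.

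Of 36 tested heat shock protein and chaperone genes, 3 rose (hsp16, hsp9 and the glyoxalase gene hsp3101 at 1.58 ± 0.16) and 1 fell, so that 4 of 36 were called, against 1.95% of all genes. That gene, fes1, encodes a nucleotide exchange factor of Hsp70 and had 239 and 162 CPM in WT and 221 and 157 in Y41F (-0.53 ± 0.09, adjusted p = 0.0269). The list's median was -0.12 (-0.08 scaled by library size alone), with 26 of 36 members below 0 in both genotypes, against 28.9% of all genes. In 25 of them both libraries numbered 2 lay below both numbered 1, against 19.2% of all genes. The Hsp70 gene ssa2 had -0.29 ± 0.08 and hsp90 had 5924 and 4646 CPM in WT and 5796 and 4808 in Y41F (-0.31 ± 0.08, adjusted p = 0.127). The disaggregase gene hsp104 came nearest to a call, with 84.9 and 63.9 CPM in WT and 170.2 and 77.3 in Y41F (-0.78 ± 0.16, adjusted p = 0.0524). It is also in the stress list, where its log2 fold change was the lowest in the fit.

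The lowest log2 fold change among the 4 genes that fell was that of SPBCPT2R1.04c, an uncharacterized subtelomeric gene with 5.81 and 0.237 CPM in WT and 17.3 and 2.63 in Y41F (-3.17 ± 0.35, edgeR adjusted p = 0.00255). Its expected counts are fractional, at 124.12 and 4.8 in WT and 413.6 and 60.67 in Y41F. SPAC212.01c, a second uncharacterized gene with the same coding length of 843 bases, had 184.43, 400.49, 0.43 and 211.87 in that order. The sums of both genes were 308.55, 405.29, 414.03 and 272.54, higher in library 2 of WT and lower in library 2 of Y41F. Whether these genes share reads was not tested. The gene ecl2, of a family linked to chronological lifespan, completed the 4, at 33.1 and 23.7 CPM in WT and 45.3 and 24.5 in Y41F (-0.69 ± 0.13).

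Nitrogen-regulated genes rose in 5 of 23 tested cases, and 0 fell (21.7% called, against 1.95% of all genes). The amino acid permease gene isp5 had 22.1 and 94.0 CPM in WT and 24.7 and 80.2 in Y41F (1.89 ± 0.12, adjusted p = 1.17e-04). The proline transporter gene put4 (0.84 ± 0.10), the oligopeptide transporter gene isp4 (0.82 ± 0.10) and the vacuolar protease gene isp6 (0.58 ± 0.09) followed, along with lsd90. Of the called genes, isp6 and lsd90 are also in the stress list and put4 is also in the subtelomeric list. The list's median was 0.22. The list member pub1 was not called, at 252 and 249.6 CPM in WT and 233 and 229.9 in Y41F (-0.01 ± 0.09). Next to isp5 in gene order lies SPAC1039.08, for a serine acetyltransferase, which also rose (0.89 ± 0.17).

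Single members of other pathways rose. In the iron list 3 of 21 genes rose (14.3%, against 1.95% of all genes): the siderophore transporter gene str3, at 4.08 and 9.55 CPM in WT and 8.94 and 25.4 in Y41F (1.38 ± 0.16), the siderophore synthesis gene sib2 (0.66 ± 0.09) and php2, for a subunit of the CCAAT-binding factor (0.55 ± 0.10). The MADS-box gene map1, which takes part in P cell-specific transcription, had 7.87 and 17.0 CPM in WT and 11.6 and 25.4 in Y41F (1.12 ± 0.14). It was the 1 called gene of 5 in the P cell list (20%, against 1.95% of all genes), a share that rests on this gene alone. The ubiquitin gene ubi4, of a list of 33 proteasome and ubiquitin genes, had 115 and 197 CPM in WT and 149.9 and 235 in Y41F (0.71 ± 0.09). The sterol-sensing transcription factor gene sre1 (0.63 ± 0.10, 1 of 27 in the sterol list) and the glucanosyltransferase gene gas2 (0.46 ± 0.09, 1 of 33 in the cell wall list) rose as well. Of the 28 tested autophagy and vacuole genes, isp6 alone was called. The shares called were 3.03% in the proteasome list, 3.7% in the sterol list, 3.03% in the cell wall list and 3.57% in the autophagy list. These lie near the 1.95% of all genes, so that these lists did not stand out.

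Outside these lists, and named for the size of their change, stood prl65 (3.09 ± 0.18), the TOR signalling gene bit2 (2.47 ± 0.22) and the uncharacterized gene SPCC1393.12 (1.90 ± 0.17). The catechol O-methyltransferase gene cmt2 had 3.05 and 7.03 CPM in WT and 18.3 and 133 in Y41F (2.30 ± 0.32, edgeR adjusted p = 0.00813), so that Y41F library 1 lay above WT library 2. In gene order cmt2 is the neighbour of SPBPB21E7.11 (3.30 ± 0.30) and SPBPB21E7.10 (4.11 ± 0.66), and these 3 subtelomeric genes of chromosome II were the 1 run of 3 neighbours called in the same direction. The counts of SPBPB21E7.10 were 2 and 53 in WT and 3 and 36 in Y41F.

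Ribosomal protein genes lay slightly lower in the libraries numbered 2, with no single gene called. Among 138 tested ribosomal protein genes, edgeR called 0, and the median log2 fold change was -0.16 in the fit, in WT and in Y41F alike. In all, 117 of the 138 lay below 0 in both genotypes and 0 above 0 in both, against 28.9% and 28.4% of all genes. Both libraries numbered 2 were below both numbered 1 for 101 of them, against 19.2% of all genes. Their summed level was 173112 CPM in WT library 1 against 151212 in WT library 2, and 158691 in Y41F library 1 against 144518 in Y41F library 2. Scaled by library size alone, the list had a median of -0.12. The ribosomal protein genes rps21 (-0.29 ± 0.08) and rps2 (-0.25 ± 0.08) had adjusted p-values of 0.188 and 0.265. Of 26 translation factor genes 22 lay below 0 in both genotypes (median -0.13), of 60 amino acid biosynthesis genes 42 (median -0.11) and of 19 sulfur assimilation and methionine genes 12 (median -0.11). Scaled by library size alone, these 3 medians were -0.09, -0.06 and -0.07. None of these was called, and met14, for a kinase of sulfate assimilation, came nearest, at 309 and 231 CPM in WT and 329 and 239.8 in Y41F (-0.44 ± 0.09, adjusted p = 0.0672).

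The shift also moved with gene length and level. Across genes, Spearman's correlation of coding length with the shift was 0.214 in WT and 0.107 in Y41F, and that of the level with the shift was -0.226 and -0.108. Ribosomal protein genes are short and abundant, and the part of length and level in their values was not tested. The median coding length of the called genes was 1083 bases, against 1143 over all tested genes.

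**Figure D3:**
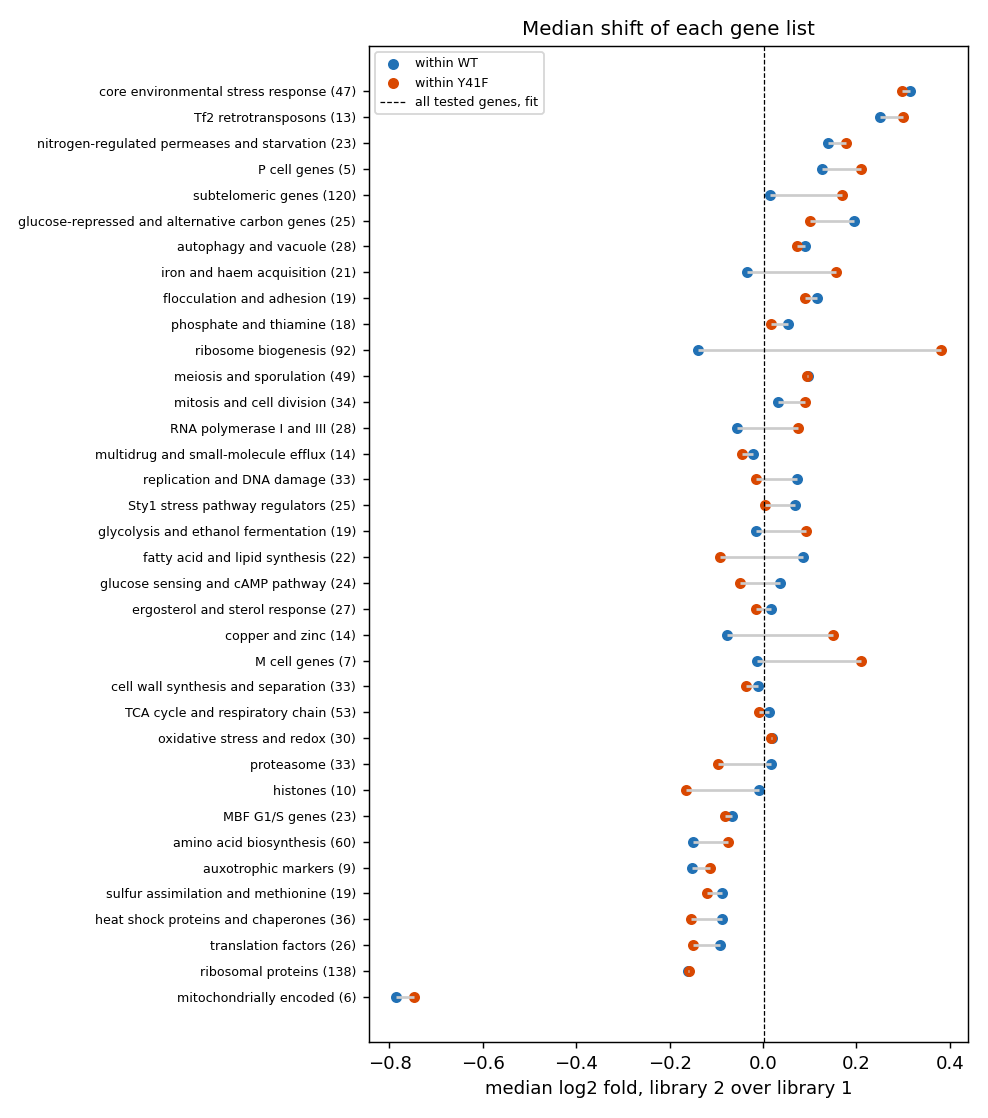
Median log2 fold change of library 2 over library 1 within WT (blue) and within Y41F (orange) for each gene list, with the number of tested members in brackets and a line joining both genotypes. The stress list lies near 0.3 and the ribosomal proteins near -0.16 in both genotypes, while ribosome biogenesis lies on opposite sides of 0.

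Of 92 tested ribosome biogenesis genes, 0 were called, and the median shift was -0.14 within WT and 0.38 within Y41F. In 72 of the 92 the shift was below 0 in WT and above 0 in Y41F, against 22% of all genes. In Y41F 22 of the 92 were at least 1.5-fold higher in library 2, against 4.75% of all genes, and in WT 0 were, against 3.09%. Their summed level was 19192 CPM in WT library 1, 17349 in WT library 2, 14186 in Y41F library 1 and 17063 in Y41F library 2, so that Y41F library 1 was the lowest of the 4. The RNA helicase gene dbp7 had 72.4 and 76.1 CPM in WT and 46.9 and 76.5 in Y41F. Other members named by the rule were lower in library 2 of both genotypes. Of these, nop56 had 911 and 807 CPM in WT and 911 and 743 in Y41F, fib1 had 531 and 492 in WT and 491 and 454 in Y41F, and nhp2 had 151 and 137 in WT and 178 and 136 in Y41F. Genes of RNA polymerases I and III, 28 tested, had medians of -0.06 in WT and 0.07 in Y41F. A test of the difference between the genotypes was not possible, as 4 libraries leave no residual degree of freedom for it.

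Of the 4862 genes whose mean reached 5 CPM, 61 (1.25%) were at least 2-fold apart within WT and 68 (1.4%) within Y41F. Of the same genes, 34 (0.699%) were at least 2-fold higher in library 2 of both genotypes and 1 (0.0206%), SPBCPT2R1.04c, at least 2-fold lower in both. No gene was at least 2-fold apart in opposite directions. A gene was taken as apart in 1 genotype where its log2 fold change was at least 1 in size there and at most 0.25 in the other. By that rule 10 genes (0.206%) were higher in WT library 2 and 0 were lower, while in Y41F 8 (0.165%) were higher and 12 (0.247%) lower in library 2. Each such ratio sets 1 library against 1, has no replicate check, and its interval covers counting error only.

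In WT the gene with the largest such ratio was mei2, which encodes the RNA-binding master regulator of meiosis. It had 14.5 CPM in WT library 1 and 44.6 in WT library 2, a log2 fold change of 1.62 (95% exact interval of the ratio 2.70 to 3.51), and 38.2 and 43.1 in Y41F. WT library 1 was thus the low one of 4. The regulator of G-protein signalling gene rgs1, which damps pheromone signalling, had 19.6 and 46.8 CPM in WT and 28.7 and 31.6 in Y41F (ratio in WT 2.38, interval 2.12 to 2.68). For other genes WT library 2 was the high one. The glycerophosphodiester transporter gene tgp1, which is induced by phosphate starvation, had 23.4 and 71.1 CPM in WT and 19.6 and 22.8 in Y41F (3.03, interval 2.74 to 3.36). The flocculin gene pfl8 had 65.4 and 146 CPM in WT and 51.3 and 50.6 in Y41F (2.23, interval 2.09 to 2.37). The retrotransposons Tf2-7 and Tf2-8, which share 1 set of counts, had 38.5 and 102 CPM in WT and 17.2 and 19.1 in Y41F (2.64, interval 2.44 to 2.87). The pyridoxal reductase gene akr7 and min8 had ratios of 2.91 and 2.72, at levels of at most 14.3 CPM. The acid phosphatase gene pho1, another gene of phosphate starvation, had 755 and 1299 CPM in WT and 761 and 711 in Y41F. Its log2 fold change in WT was 0.78, short of the rule. Of 18 tested phosphate and thiamine genes, 6 lay above 0 in both genotypes and 4 below 0 in both. Another 5 lay above 0 in WT and below 0 in Y41F, and 3 went the other way.

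In Y41F most of the named genes stood out through library 1. The high-affinity glucose transporter gene ght1 had 5.81 and 5.98 CPM in WT and 54.9 and 12.7 in Y41F, with Y41F library 1 over library 2 at 4.32 (interval 3.80 to 4.92). The glycerol dehydrogenase gene gld1 had 8.86 and 9.45 CPM in WT and 72.9 and 14.4 in Y41F (5.08, interval 4.52 to 5.73). The transcription repressor gene rsv1 had 3.80 and 4.04 CPM in WT and 19.4 and 4.74 in Y41F (4.09), and mug114 had 12.6 and 12.6 in WT and 74.5 and 9.83 in Y41F (7.58). The main hexose transporter gene ght5, picked with its values in view, had 216 and 258 CPM in WT and 611 and 235 in Y41F. The sexual differentiation genes ste11 and ste7, both past the rule but outside the 8 named by size, had 84.7 and 86.3 CPM in Y41F library 1 and between 26.8 and 42.6 in the other libraries. While gld1 belongs to the list of glucose-repressed and alternative carbon genes, agl1, fbp1 and inv1 of that list had 31.5, 20.4 and 118 CPM in Y41F library 1, below both libraries numbered 2. The other named genes included the flavin oxidoreductase gene SPBC23G7.10c, at 6.23 and 6.13 CPM in WT and 10.2 and 0.862 in Y41F (11.9, interval 7.52 to 19.8), and elo2, for an elongase-family protein, where Y41F library 2 was the low one (2.38, interval 2.14 to 2.66). The F-box protein gene pof15 had a ratio of 2.55. The tRNA thiolation gene ctu2 was the reverse, with 29.8 and 27.7 CPM in WT and 12 and 28.8 in Y41F.

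**Figure D4:**
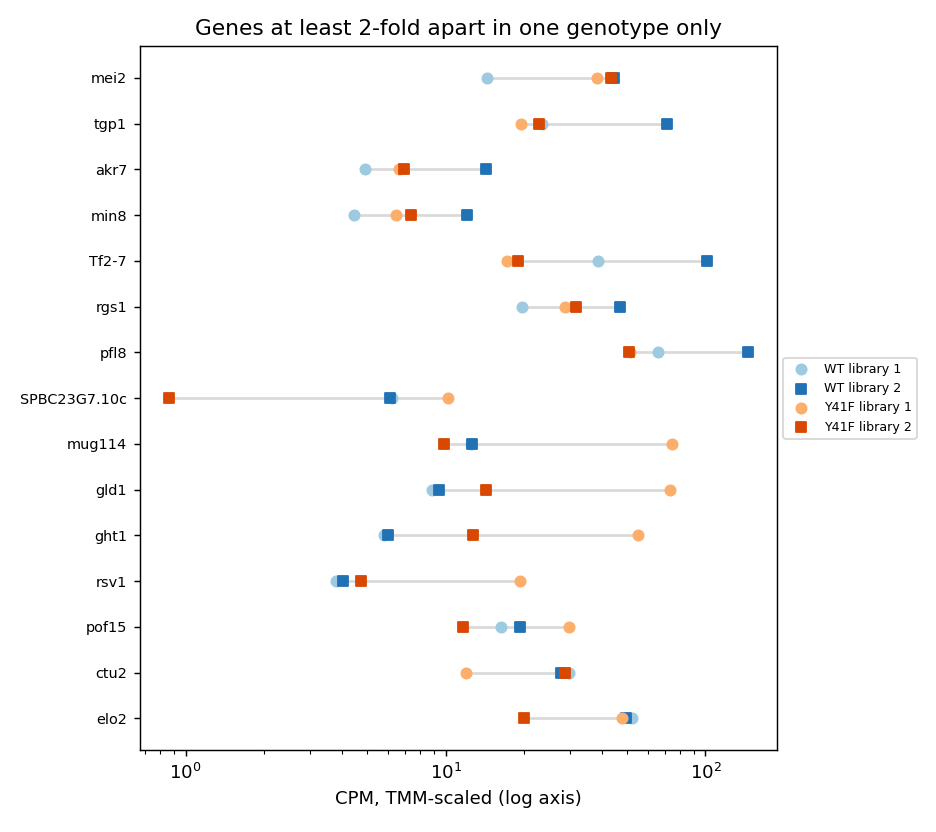
CPM (log axis) in the 4 libraries of genes at least 2-fold apart in 1 genotype and at most 0.25 apart on the log2 scale in the other; circles are libraries numbered 1 and squares libraries numbered 2, blue for WT and orange for Y41F. Tf2-8 has the same counts as Tf2-7 and is not drawn. For ght1, gld1, rsv1 and mug114 Y41F library 1 is the high point, and for tgp1 and pfl8 WT library 2 is.

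Subtelomeric genes, which lie near chromosome ends in partly silent chromatin, held 11 calls in 120 tested, 10 higher and 1 lower, or 9.17% against 1.95%. Their median shift was 0.01 in WT and 0.17 in Y41F. Of the 120, 46 lay above 0 in both genotypes and 34 below 0 in both, against 28.4% and 28.9% of all genes. The methyltransferase gene SPAC977.03 had expected counts of 3.78 and 63.58 in WT and 0.16 and 125.45 in Y41F. Of 13 retrotransposon Tf2 genes, 1 was called (7.69%, against 1.95% of all genes), a share that rests on 1 gene. Tf2-13 was called higher, at 0.234 and 2.18 CPM in WT and 0.209 and 7.63 in Y41F (4.39 ± 0.51, edgeR adjusted p = 0.00333). Its counts and those of SPAC977.03 are fractional. Of the 99 called genes 6 had fractional counts (more than 0.005 from a whole number in some library), or 6.06% against 4.43% of all tested genes.

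By edgeR no call was made among 49 meiosis and sporulation genes (median 0.08), 34 of mitosis and division (0.05), 33 of replication and DNA damage (0.03), 23 MBF-controlled G1/S genes (-0.09), 10 histone genes (-0.09), 7 M cell genes (0.00) and 19 of flocculation and adhesion (0.12). No gene of phosphate and thiamine (18), fatty acid and lipid synthesis (22), efflux (14) or the auxotrophic markers (9) was called either. In the copper and zinc list zym1, which is also in the stress list, was the 1 called gene of 14 (7.14%, against 1.95% of all genes). That share rests on zym1 alone. The 6 tested mitochondrially encoded genes all lay below 0 in both genotypes, at under 4 CPM in every library and with none called, and their medians were -0.79 in WT and -0.75 in Y41F. On log2(FPKM + 1) their median was -0.39. Taking all lists, 23 of 36 medians lay above 0 in the fit.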

How the data were processed

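The authors deposited, per library, a gene table with RSEM-type expected counts and FPKM values, per the file headers. Named in the submitters' processing notes are BWA, Bowtie, RSEM and the build ASM294v2, without roles; whether strand was used in counting is not stated in them. RNA was extracted with TRIzol and sequenced on an Illumina HiSeq instrument, per the labels' protocols. The tables hold genes with counts only, so a missing gene was taken as 0. In all 5133 genes were listed in some library and 5107 in all 4. Of the identifiers 5100 matched the ASM294v3 annotation (4253 with a symbol), used for names and gene order only, since the builds differ. Gene lengths are all multiples of 3 and so coding lengths.

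Rounded expected counts were fitted with edgeR 4.0.16 (R 4.3.3; TMM scaling, factors 0.959 to 1.02; quasi-likelihood test with genotype and library number, 1 residual degree of freedom). The expression filter removed 57 genes and left 5076. Each SE is the size of the fold change over the square root of its F value. CPM are TMM-scaled, and shifts within a genotype use a prior count of 2. DESeq2 1.42.0 and limma 3.58.1 on log2(FPKM + 1) were alternatives. The script was checked on simulated data.

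The comparison, the 36 gene lists (61 of 1007 entries unmatched) and the tests were chosen with earlier results of these data known. A wrongly matched entry was removed from the efflux list after its values were seen. Genes named were drawn mainly from the groups that follow, and not every member of them is named. The groups were the 12 in each direction with the largest change (mean at least 5 CPM, filled by smallest p) and 8 per genotype apart in that genotype. Per list they were the 3 smallest p and the 2 most abundant. Genes with at most 3 counts in 1 library and at least 50 in another, and runs of 3 called neighbours, completed them. No list was tested as a set.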

Additional observations from a re-analysis of the deposited data

Results flagged for a closer look

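The median shift of the ribosome biogenesis genes was -0.14 in WT and 0.38 in Y41F, in opposite directions. A difference between the genotypes was not tested here or for the genes that follow, because each genotype has 1 library of each number.

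A further 6 genes, with means of 5 CPM or more, were at least 1.5-fold apart in opposite directions (log2 fold change of library 2 over library 1). The cellulose-binding domain gene cbm1 had -0.96 in WT and 1.08 in Y41F, with 496 and 255 CPM in WT and 217 and 458 in Y41F. The phosphate transporter gene pho841 had 1.06 in WT and -0.66 in Y41F, with 136 and 284 CPM in WT and 255 and 161 in Y41F. The arylsulfatase gene SPBPB10D8.02c had -0.63 and 0.91, and SPBC460.04c had -0.60 and 0.85. In mug108 the shifts were 0.73 in WT and -1.75 in Y41F, with 25.6 CPM in Y41F library 1 and at most 7.54 in the others. The uncharacterized gene SPAC29A4.22 had 1.28 and -0.89, at 0.984 and 2.52 CPM in WT and 16.4 and 8.84 in Y41F.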

How the results depend on the processing

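Of the 99 calls, 60 were made in each of 7 alternatives of scaling, filter, tool and unit. The count was 162 when only library size was scaled for and 176 with limma on log2(FPKM + 1), which share 99 and 96 calls with the main result, and it stayed within 1.5 times with the other scaling (76), no filter (107), a filter at 10 CPM (88), merged identical genes (86) and DESeq2 (74). The genes called lower, 4 in the main fit, numbered 2 with the other scaling, 2 with merged identical genes, 3 with the filter at 10 CPM and 4 with DESeq2. They numbered 7 with no filter, 9 when only library size was scaled for and 16 with limma. Without the genotype block 11 genes were called, and 5 of the stress list. Leaving out 1 library, also without the block, gave between 0 and 17 calls: 0 without WT library 1 (647 at an unadjusted p under 0.05), 2 without Y41F library 1, 15 without Y41F library 2 and 17 without WT library 2; for the stress list the range was 0 to 5. Without Y41F library 2 and without the block, 3 called genes were below 0: the log2 fold of cmt2 was -0.61, the log2 fold of SPAC186.07c was -0.89 and the log2 fold of SPAC23C11.06c was -0.048. That fit set WT library 2 alone against WT library 1 and Y41F library 1, so a gene's difference between the genotypes enters its fold change there. In the block fit the log2 fold changes of Y41F over WT were 3.58 for cmt2, 2.79 for SPAC186.07c and 1.27 for SPAC23C11.06c. The size of that part was not tested. Scaling by library size alone moved the median of all genes to 0.04 and the list medians by about as much. Genes at least 1.5-fold apart in both genotypes numbered 69, against 35 at 2-fold.

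For Y41F against WT, edgeR called 1 gene without a block and 87 with the library number as a replicate block. The labels do not say that the numbers pair the libraries. DESeq2 called 68, and leaving out 1 library gave 0 to 197, with 0 without WT library 1 (168 at an unadjusted p under 0.05), 0 without WT library 2 (262), 65 without Y41F library 1 and 197 without Y41F library 2.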

Other observations

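Some genes had at most 3 counts in 1 library and at least 50 in another. In WT shu1, for haem uptake, had 1 count in library 1 and 2 in library 2, against 110 and 35 in the Y41F libraries. The gene hry1, for a cation-binding protein, had 0 counts in WT library 1, 57 in WT library 2 and 9 and 32 in the Y41F libraries, and edgeR did not call it between the numbers (adjusted p = 0.161). SPBCPT2R1.02 was at 0 in both WT libraries and had 75.82 and 84.88 in Y41F, with fractional counts.

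Of the 21 iron genes, 5 lay above 0 and 4 below 0 in both genotypes, and 12 had opposite signs, as did 2170 of all 5076 genes. Of those 12, 8 lay below 0 in WT and above 0 in Y41F, and 4 went the other way. Among the 8, 3 were picked with their values in view. The ferric reductase gene frp1 had 16 and 12.3 CPM in WT and 30.7 and 68.0 in Y41F, and the siderophore transporter gene str1 had 98.4 and 68.9 in WT and 119 and 201 in Y41F. The ferroxidase gene fio1 had 21.7 and 18.1 CPM in WT and 29.2 and 45.8 in Y41F. For each of them Y41F library 2 was the highest of the 4 and WT library 2 the lowest. In the block fit 20 of the 99 called genes also passed an adjusted p under 0.05 for Y41F against WT, as did 87 of all 5076 genes, whereas without the block 1 gene did. Both tests use the same fit and the same residual of each gene, so passing 1 is not independent of passing the other. Among the 20, hsp16 had a log2 fold change of 1.33 (Y41F over WT), agl1 of -0.72 and cmt2 of 3.58.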
